A study of Mus musculus with 4 samples.

Results

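The enzymes described here are 10 genes of glycolysis and lactate metabolism, namely the hexokinase Hk1, the phosphofructokinases Pfkl and Pfkm, the aldolase Aldoa, the triose phosphate isomerase Tpi1, Gapdh, the phosphoglycerate kinase Pgk1, the pyruvate kinase Pkm and the lactate dehydrogenases Ldha and Ldhb. They were taken by gene symbol from 35454 symbols in the files, and all 10 were among the 14903 genes with enough reads to be called measured. The sleep-deprived group (SD) was fear conditioned, which pairs a place or cue with a shock, and was then kept awake for 6 h before hippocampal RNA was taken. The Control group had the same training and was left to sleep for those 6 h. All mice were C57BL/6J, 4 months old, and carried P2RY12CreER and the Rpl22HA RiboTag allele, so both groups share the tag and the training. The Cre is under a microglial promoter and turns on a tagged ribosomal protein, by which ribosomes and their messages are pulled down. Input RNA was not used here. Each deposited sample is a pool of 2 mice, and the design text calls the samples technical replicates.

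Glycolysis turns glucose into pyruvate and yields ATP and NADH. Hexokinase traps glucose in the cell, phosphofructokinase catalyses the committed step, and aldolase and triose phosphate isomerase supply the triose phosphate that Gapdh oxidises. Phosphoglycerate kinase and pyruvate kinase then make ATP, and lactate dehydrogenase interconverts pyruvate and lactate. These enzymes are made in all brain cells. Astrocytes are known for high glycolysis and lactate release, and neurons can take lactate up and oxidise it.

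The SD files held 14473030 and 14431647 estimated reads, and the Control files 14877011 and 14833320. Within each group the 2 files lay closer together than the sampling noise of the counts, and they were averaged and counted as 1 sample. A chi-square statistic of their gene counts, divided by its degrees of freedom, was 0.225 for the SD pair and 0.308 for the Control pair, and 69.2 to 69.3 for files of different groups. This leaves n = 1 per group, with no test and no p-value, and values of the 2 files of a group show no spread between mice. Ratios are SD over Control of read counts scaled to library size (CPM) after TMM scaling, which removes overall shifts between libraries. A bracketed range is the exact conditional 95% interval of the ratio and covers counting error only, not differences between mice or pulldowns. A gene was called when the ratio was at least 2-fold in either direction and that interval excluded 1.

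The genes are made in every cell type of the tissue, and the cell type markers differed between the libraries. The 15 microglial markers summed to 601 CPM in the SD library and 192 CPM in the Control library, a ratio of 3.13, with 11 called higher. Among them Fcrls had a ratio of 6.39, Csf1r 2.50 and Sall1 0.997. The 12 astrocyte markers summed to 1345 CPM in SD and 2192 CPM in Control (0.614), with 3 called lower and ratios between 0.389 for S100b and 1.12 for Fgfr3, and with the most abundant, Slc1a3 and Slc1a2, at 0.669 and 0.5003. The 10 oligodendrocyte markers summed to 2268 CPM in SD and 3639 CPM in Control (0.623), with 2 called lower, Opalin at 0.169 and Mbp at 0.449, and with Mag at 1.46. The 13 neuronal markers summed to 3185 CPM in SD and 3826 CPM in Control (0.833) with 0 called, from Gad1 at 0.575 to Slc17a7 at 1.70, and Snap25 was at 0.742 and Map2 at 0.844. The 9 endothelial markers summed to 183.5 CPM in SD and 186 CPM in Control, with Cdh5 at 1.24, Tek at 0.756, Slco1a4 at 0.886 and Flt1 at 1.20. The 7 erythroid markers, 6 of them measured, summed to 129.8 CPM in SD and 196 CPM in Control, with 1 called higher and 2 lower. Of these Slc4a1 was at 2.81, Alas2 at 0.440, Hba-a2 at 0.4998 and Hbb-bs at 0.906. Microglial, astrocyte, neuronal and oligodendrocyte markers all had reads in both libraries. With 1 pulldown library per group, fewer cells of a type, less RNA per cell and a difference between the pulldowns cannot be told apart. The part of these marker differences in the ratios below was not tested.

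None of the 10 genes was called. Over all measured genes 9.86% were called, 4.22% higher and 5.64% lower in SD, and among the 7025 genes with a mean of at least 400 reads, a group that holds all 10, 3.19% were. The ratios lay between 0.621 for Ldhb and 1.28 for Pfkl, with a median of 0.925 against 0.994 for all measured genes. Summed over the 10 genes the level was 1916 CPM in the SD library and 2130 CPM in the Control library, a ratio of 0.8996 (0.885 to 0.914). Without Ldhb the summed ratio was 0.927 (0.912 to 0.943). The counting interval lay below 1 for 5 genes, Aldoa, Gapdh, Pkm, Ldha and Ldhb, where the background was 30.5% of all measured genes and 34.1% of those with at least 400 reads. It lay above 1 for Pfkl and Pfkm, where the background was 31.4% and 43.1%. For Hk1, Tpi1 and Pgk1 the interval held 1. Intervals that excluded 1 were thus common in these libraries at this depth.

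**Figure D1:**
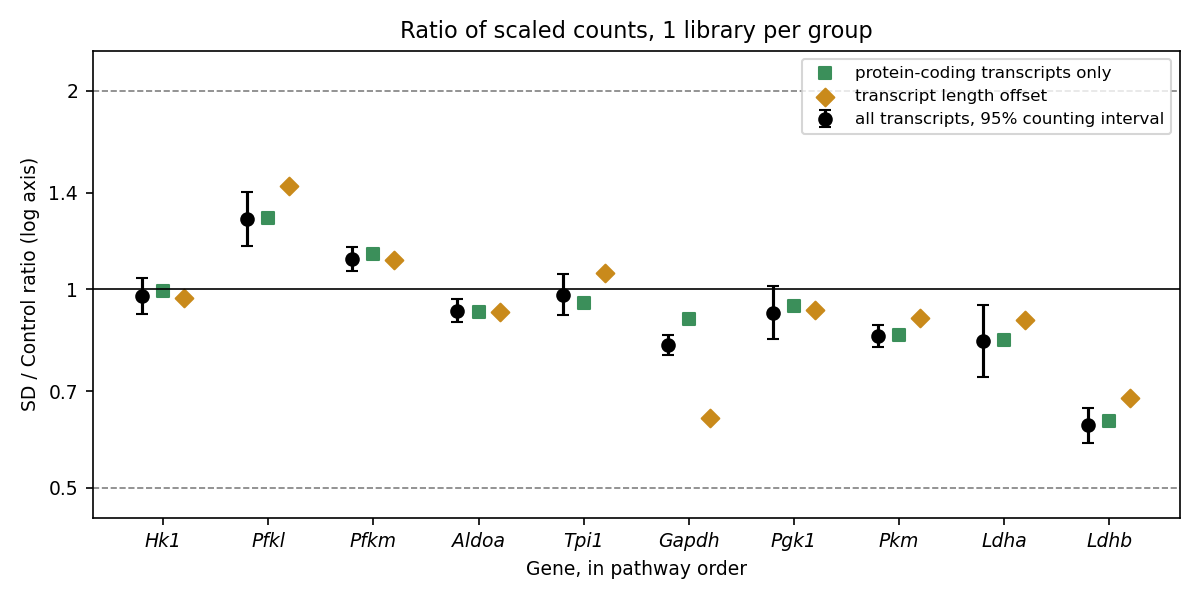
SD over Control ratio of each gene on a log axis, with black points and bars for all transcripts and their 95% counting intervals, green squares for protein-coding transcripts only and orange diamonds for the ratio with a transcript length offset. Every point lies inside the dashed lines at 0.5 and 2, with Ldhb lowest at 0.621 and Pfkl highest at 1.28 among the black points, and the diamonds of Gapdh (0.638) and Pfkl (1.43) stand away from their black points.

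Levels of different genes were compared as length-corrected transcript abundance (TPM). On that scale the median ratio of all measured genes was 1.16, a shift of 0.22 in log2, so TPM is used below for levels and shares and not for differences between the groups. Gapdh was the most abundant in every file, with 797 and 784 TPM in the SD files and 1060 and 1067 TPM in the Control files. Its coding pair Gapdh-201 plus Gapdh-202 alone was at 491 and 486 TPM in SD and 500 and 508 TPM in Control. Aldoa followed with 530 and 535 TPM in SD and 494 and 496 TPM in Control. Ldhb had 384 and 382 TPM in SD and 493 and 471 TPM in Control. Between 45.6% and 54.2% of this lay on the 437-base Ldhb-202, so the rank of Ldhb rests partly on a short transcript. The full-length Ldhb-201 alone had 174 and 172 TPM in SD and 244 and 248 TPM in Control, below Pkm in every file. In Control the files of Aldoa and Ldhb lay next to each other, the highest of Ldhb within 1 TPM of the lowest of Aldoa, and in SD they were apart. Pkm came next at 363 and 367 TPM in SD and 345 and 349 TPM in Control, close below Ldhb in SD. Pfkm, Tpi1, Pgk1 and Hk1 came below in this order in all 4 files. Ldha and Pfkl were lowest, with Pfkl above Ldha in SD and below it in Control.

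**Figure D2:**
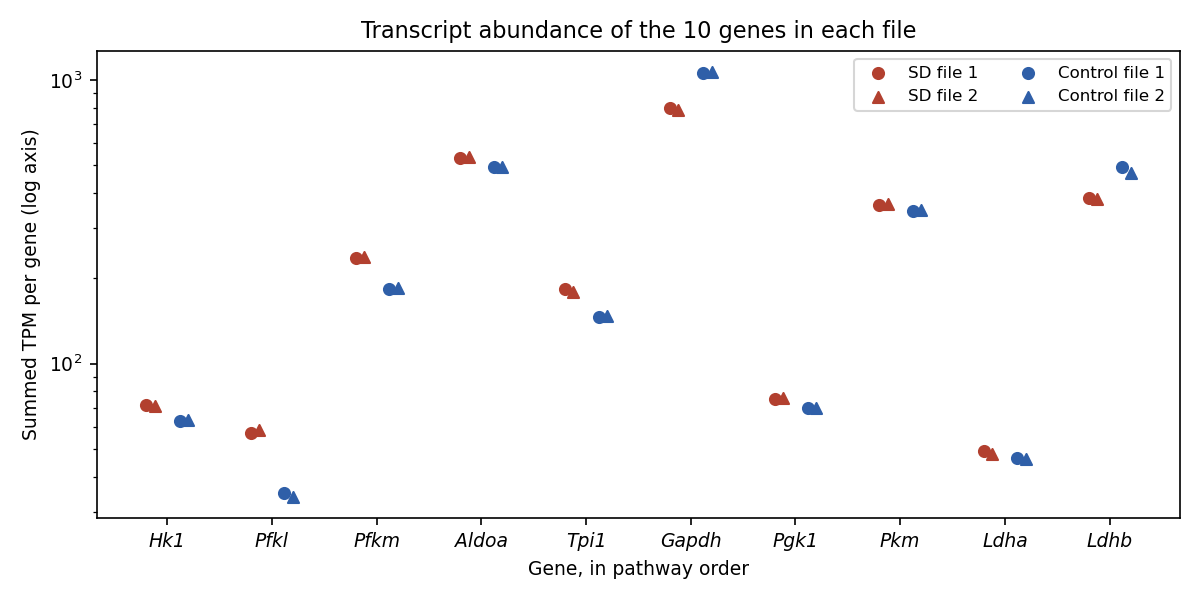
Summed TPM of each gene on a log axis in the SD files (red, left) and the Control files (blue, right), with circles for file 1 and triangles for file 2. The files of a group lie almost on top of each other. Gapdh is highest at 797 and 784 TPM in SD and 1060 and 1067 TPM in Control. On this log axis Pfkl has the widest gap between groups, with the overall TPM shift still included. Relative to the median TPM ratio of all genes, the log2 difference is larger for Gapdh (−0.64) than for Pfkl (0.52). The Gapdh gap lies mostly on the short noncoding Gapdh-206 and Gapdh-208. Its coding pair Gapdh-201 plus Gapdh-202 was at 488 TPM in SD and 504 TPM in Control.

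Hk1 (chr10:62268855-62379908, minus strand, GRCm38) encodes the hexokinase that predominates in brain. It had 1890 and 1876 reads in the SD files and 2056 and 2049 reads in the Control files. After scaling this was 133 CPM in SD and 136 CPM in Control, a ratio of 0.977 (0.917 to 1.04), so the libraries did not differ beyond counting error. Reads went almost entirely to a pair of protein-coding transcripts that start at different first exons. Hk1-202 opens with the exon that encodes the hydrophobic segment by which this enzyme binds the outer mitochondrial membrane. Hk1-201 has other coding exons in its place. The coding starts are shown 5′ to 3′ because they set these transcripts apart, with the start codon in capitals, at chr10:62340013-62340075 for Hk1-202 and at chr10:62358336-62358362 and chr10:62353058-62353105 for Hk1-201.
Hk1-202 coding exon 1: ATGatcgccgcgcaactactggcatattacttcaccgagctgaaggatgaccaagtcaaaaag
Hk1-201 coding exon 1: ATGggacagaactgccagcgaggacag
Hk1-201 coding exon 2: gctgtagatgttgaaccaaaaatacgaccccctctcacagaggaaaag
Hk1-202 held 25.1% and 23.7% of the gene's TPM in the SD files and 18.7% and 17.6% in the Control files, a difference of 6.25 percentage points. Hk1-201 held the larger part, 73.2% and 74.9% in SD and 79.7% and 80.8% in Control. Each stretch of 31 bases in Hk1-201 also occurs in another annotated Hk1 transcript, so its estimate rests on how the model divided shared reads.

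Phosphofructokinase is a tetramer built from liver-type (Pfkl), muscle-type (Pfkm) and platelet-type (Pfkp) subunits. Pfkl (chr10:77986947-78010083, minus strand) had 965 and 954 reads in the SD files and 801 and 796 in the Control files. This gave 67.8 CPM in SD and 53.04 CPM in Control, a ratio of 1.28 (1.16 to 1.41), and 1.43 with the transcript length offset. That offset adjusts for the mean length of a gene's transcripts, weighted by their TPM. The interval lay above 1, and the ratio was under 2-fold. The full-length coding transcript Pfkl-201 carried 93.8% of the gene's reads in SD and 95.1% in Control, with a ratio of 1.26 (1.14 to 1.39). The short retained-intron transcript Pfkl-203, of 492 bases, took 27.4% and 24.1% of the gene's TPM in SD and 21.2% and 18.9% in Control on fewer than 30 reads per file, because TPM weights short transcripts up. The other short transcripts, Pfkl-204 and Pfkl-207, had 0 to 20.7 reads per file. All of these short transcripts enter the mean length, so the ratio of 1.43 depends on few reads.

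Pfkm (chr15:98092589-98132451, plus strand) had 4600 and 4604 reads in the SD files and 4412 and 4407 in the Control files. The ratio was 1.11 (1.07 to 1.16). Within this nearly level total, the split between 2 coding transcripts differed. Pfkm-201 had 2211 and 2202 reads in the SD files and 539 and 486 in the Control files, and Pfkm-205 had 2382 and 2396 reads in SD and 3871 and 3918 in Control. As a share of the gene's TPM, Pfkm-201 was at 47.0% and 46.8% in SD and 11.9% and 10.7% in Control, a difference of 35.6 points. The coding sequence of the transcripts is identical. They differ in the first exon, at chr15:98108466-98108611 for Pfkm-201 and 15.8 kb upstream, at chr15:98092644-98092665, for Pfkm-205, and in the ends of a shared exon and of the 3′ UTR. Stretches of 31 bases found in no other Pfkm transcript number 144 in Pfkm-201 and 57 in Pfkm-205, so the split rests on a small part of each transcript. As a share of the 3 phosphofructokinase genes by TPM, Pfkm was at 45.7% in SD and 46.7% in Control, Pfkl at 11.1% in SD and 8.76% in Control and Pfkp at 43.25% in SD and 44.5% in Control. Most Pfkp TPM was on retained-intron transcripts, and over protein-coding transcripts alone the Pfkm share was 83.8% in SD and 79.3% in Control, the opposite direction.

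Aldoa (chr7:126795234-126800751, minus strand), the aldolase of muscle and brain, had 4569 and 4567 reads in the SD files and 5259 and 5217 in the Control files. The ratio was 0.928 (0.892 to 0.966). Here too the main coding transcripts share 1 coding sequence and differ in the first exon. Aldoa-201, which starts at the downstream exon chr7:126799045-126799254, had 3234 and 3350 reads in SD and 1703 and 1164 reads in Control. Aldoa-203, whose first exon chr7:126800288-126800447 lies 1.19 kb upstream, had 783 and 626 reads in SD and 3037 and 3508 in Control. As shares of the gene's TPM, Aldoa-201 was at 64.05% and 65.97% in SD and 29.1% and 19.9% in Control, and Aldoa-203 at 16.2% and 12.8% in SD and 54.02% and 62.5% in Control. The Control files stood apart from each other for both transcripts, although their gene totals were nearly equal, and the difference between the groups was 40.5 points for Aldoa-201. Aldoa-201 has 85 stretches of 31 bases found in no other Aldoa transcript and Aldoa-203 has 87. The retained-intron transcript Aldoa-209 differed by 0.48 points.

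In both genes the transcript whose share was larger in SD than in Control starts downstream of the other. The 250 bases before the RefSeq start nearest each of these starts (GRCm38.p6) are shown for that reason, 5′ to 3′ on the gene's strand. Capitals mark matches on either strand to the TATA box TATAAA, the GC box GGGCGG, the E-box CACGTG, the core ACGTG of hypoxia response elements, which every E-box also holds, and the AP-1 motif TGACTCA. The windows are chr15:98108221-98108470 for Pfkm-201, chr15:98092339-98092588 for Pfkm-205, chr7:126799255-126799504 for Aldoa-201 and chr7:126800448-126800697 for Aldoa-203.
Pfkm-201 promoter: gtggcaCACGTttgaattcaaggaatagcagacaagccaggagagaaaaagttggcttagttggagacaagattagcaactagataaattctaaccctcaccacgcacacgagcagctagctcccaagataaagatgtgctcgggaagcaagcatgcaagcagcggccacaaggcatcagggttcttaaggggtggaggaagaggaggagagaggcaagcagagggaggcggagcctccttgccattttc
Pfkm-205 promoter: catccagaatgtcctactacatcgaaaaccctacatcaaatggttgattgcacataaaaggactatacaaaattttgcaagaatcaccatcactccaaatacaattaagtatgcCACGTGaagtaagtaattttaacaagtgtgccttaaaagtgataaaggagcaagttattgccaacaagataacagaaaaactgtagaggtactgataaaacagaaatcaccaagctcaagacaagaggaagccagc
Aldoa-201 promoter: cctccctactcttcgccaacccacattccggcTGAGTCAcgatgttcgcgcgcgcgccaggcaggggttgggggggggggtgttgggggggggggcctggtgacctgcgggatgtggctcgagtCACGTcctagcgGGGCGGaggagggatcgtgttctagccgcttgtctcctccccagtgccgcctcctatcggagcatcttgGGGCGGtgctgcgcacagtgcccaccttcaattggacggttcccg
Aldoa-203 promoter: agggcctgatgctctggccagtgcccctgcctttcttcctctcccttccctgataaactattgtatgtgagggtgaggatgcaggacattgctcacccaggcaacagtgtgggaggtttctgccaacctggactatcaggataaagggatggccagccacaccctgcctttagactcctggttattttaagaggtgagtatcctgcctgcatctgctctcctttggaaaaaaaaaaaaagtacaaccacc
The Aldoa-201 window is 67.6% G or C with 21 CpG, 2 GC boxes, 1 ACGTG core outside an E-box and 1 AP-1 match, and the Aldoa-203 window is 50.4% G or C with 0 CpG and 0 matches. The Pfkm-201 window is 51.2% G or C with 6 CpG and 1 ACGTG core, and the Pfkm-205 window is 36.4% G or C with 2 CpG and 1 E-box. Over 32851 such windows the medians were 52.4% G or C and 6 CpG. Of those windows 12.4% hold TATAAA, 32.7% the GC box, 6.02% the E-box, 16.6% the ACGTG core and 4.46% the AP-1 motif. These matches describe letters in the windows only.

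Tpi1 (chr6:124810586-124814296, minus strand), which interconverts the triose phosphates, had 1528 and 1511 reads in the SD files and 1656 and 1640 in the Control files. The ratio was 0.982 (0.915 to 1.05), and 1.06 with the length offset, so neither direction held. Retained-intron transcripts took 15.4% of its reads in SD and 11.4% in Control. The coding transcript Tpi1-205 was at 63.0% and 66.9% of the gene's TPM in SD and 73.1% and 74.6% in Control. The retained-intron Tpi1-204 was at 13.2% and 10.5% in SD and 10.7% and 7.90% in Control, and the short coding Tpi1-203 differed by 0.66 points. The very short Tpi1-202 had 7 and 5 reads in SD and 1 in each Control file, too few to rank.

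Gapdh (chr6:125161715-125166467, minus strand) makes the NADH of glycolysis and often serves as a reference gene. It had 5645 and 5686.5 reads in the SD files and 7309 and 7321 in the Control files. The level was 400.3 CPM in SD and 486 CPM in Control, a ratio of 0.824 (0.796 to 0.853). That ratio was the most dependent of the 10 on the transcripts counted, at 0.900 over protein-coding transcripts and 0.638 with the length offset. Gapdh-201 and Gapdh-202 differ by 1 base and were summed, with 3795 and 3737 reads in SD and 4807.5 and 4859 in Control, a ratio of 0.829 (0.794 to 0.866). The noncoding Gapdh-206, a 565-base retained-intron transcript at the 3′ end, had 423 and 401 reads in SD and 1122 and 1109 in Control. It made up 22.3% and 21.6% of the gene's TPM in SD and 35.7% and 35.2% in Control, a difference of −13.5 points. Each stretch of 31 bases in Gapdh-206 also occurs in another annotated Gapdh transcript, so its estimate rests on how the model divided shared reads. Gapdh-208, a short processed transcript, was listed at 0 reads in both SD files and had 235 and 239 reads in the Control files. Gapdh-203, with its first exon in the first intron of Gapdh-201, had 585 and 699 reads in SD and 484 and 397 in Control. Gapdh shares 27.2% of its stretches of 31 bases with other genes, among them 124 pseudogenes that together were given 439 reads in SD and 402 in Control. With those reads added, the ratio was 0.842 (0.814 to 0.871).

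Pgk1 (chrX:106187100-106203699, plus strand), the first ATP-yielding enzyme of the pathway, had 879 and 880 reads in the SD files and 1021 and 1012 in the Control files. The ratio was 0.922 (0.841 to 1.01). A single coding transcript, Pgk1-201, held 96.8% and 97.5% of its TPM in SD and 96.9% and 96.8% in Control. More than with the other genes, its sequence recurs elsewhere: 54.7% of its stretches of 31 bases are shared, with 4 pseudogenes sharing 100 or more, which were listed at 0 reads.

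Pkm (chr9:59656368-59679375, plus strand) encodes pyruvate kinase and is spliced through 1 of 2 mutually exclusive exons. The M1 exon gives the constitutively active form of muscle and mature neurons, and the M2 exon gives the regulated form of glia and of dividing cells. Each exon is 167 bases long and is the ninth in its transcript. They are shown because the M1 to M2 balance turns on them, with capitals at the 64 positions where they differ when set side by side (38.3%). The M1 exon lies at chr9:59675029-59675195 and the M2 exon at chr9:59675568-59675734.
Pkm M1 exon: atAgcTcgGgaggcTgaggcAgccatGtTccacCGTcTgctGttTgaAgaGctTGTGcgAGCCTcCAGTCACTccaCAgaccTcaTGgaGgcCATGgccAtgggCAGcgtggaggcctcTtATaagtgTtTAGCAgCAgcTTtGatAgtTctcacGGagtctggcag
Pkm M2 exon: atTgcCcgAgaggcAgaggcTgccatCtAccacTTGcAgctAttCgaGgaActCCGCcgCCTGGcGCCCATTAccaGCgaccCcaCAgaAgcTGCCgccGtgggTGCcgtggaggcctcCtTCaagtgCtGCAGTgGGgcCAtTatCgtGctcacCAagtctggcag
The gene had 4912 and 4911 reads in the SD files and 6158 and 6143 in the Control files, 347 CPM in SD and 408 CPM in Control, a ratio of 0.8497 (0.818 to 0.882). The M2 transcript Pkm-201 had 3265 and 3247 reads in SD and 4538 and 4537 in Control, a ratio of 0.764 (0.7297 to 0.799). The M1 transcript Pkm-202 had 1384 and 1392 reads in SD and 1405 and 1368 in Control, a ratio of 1.07 (0.989 to 1.15). The interval of the M2 transcript lay below 1 and that of the M1 transcript held 1. Stretches of 31 bases found in no other Pkm transcript number 576 in Pkm-201 and 19 in Pkm-202. The intervals do not cover how shared reads were divided between them. The retained-intron transcript Pkm-203, which carries the M1 exon and part of the intron after it, had 204 and 209 reads in SD and 169 and 189 in Control. Of TPM on transcripts with either exon, M2 made up 55.9% and 55.4% in the SD files and 64.9% and 64.5% in the Control files, a difference of −9.09 points. Over the coding transcripts alone it was 65.95% and 65.7% in SD and 72.6% and 73.1% in Control. M2 was the larger form in all 4 files. Pkm-201 also reaches further at both ends than Pkm-202, so reads in the UTRs, not the exclusive exons alone, entered this split. Of the 8 listed regulators known to act on this exon choice, 6 had a ratio above 1 and 2 below, and the 3 most abundant follow. Hnrnpa2b1 had 2371 CPM in SD and 1343 CPM in Control (1.77, 1.73 to 1.796). Hnrnpa1 had 555 CPM in SD and 315 CPM in Control (1.76, 1.699 to 1.83). Ptbp2 had 279 CPM in SD and 370 CPM in Control (0.753, 0.723 to 0.784). Its relative Ptbp1, named after its value was seen, was at 1.06 (0.983 to 1.14). Over coding transcripts alone Hnrnpa1 was at a ratio of 0.00529, so its direction turned with the transcripts counted. Because fewer than 3 reads were set to 3 for a fold, the size of this ratio may reflect that floor. It is not read here as a drop of the gene, and its cause was not tested. On the same count Hnrnpa2b1 was at 2.14 and called higher, and Ptbp2 stayed below 1.

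Lactate dehydrogenase is a tetramer of Ldha and Ldhb subunits, and the Ldhb-rich form is typical of tissues that oxidise lactate. Ldha (chr7:46841475-46855627, plus strand) had 458 and 452 reads in the SD files and 583 and 577 in the Control files, the fewest of the 10 genes. The ratio was 0.835 (0.737 to 0.945). Its main coding transcript Ldha-202 held 88.1% and 90.9% of the gene's TPM in SD and 98.7% and 99.4% in Control, and retained-intron transcripts took 1.77% of its reads in SD and 0.304% in Control. Ldhb (chr6:142490249-142507957, minus strand) had 1687 and 1678 reads in SD and 2901 and 2862 in Control. This was 119 CPM in SD and 191 CPM in Control, a ratio of 0.621 (0.585 to 0.66), the lowest of the 10. Ldhb alone passed a 1.5-fold rule, which 26.1% of all measured genes passed. In the direction lower in SD it was passed by 13.6% of them, and by 8.77% of those with at least 400 reads. With the length offset Ldhb was at 0.683 and outside that rule, Gapdh at 0.638 was inside it, and 29.2% of all genes passed. The ratio of Ldhb stood at percentile 12.6 of all measured genes and lay between 0.5999 and 0.683 under the scalings of read counts, transcript choices and left-out files tried, and at 0.685 as TPM relative to the median of all genes. The full-length transcript Ldhb-201 had 1383 and 1366 reads in SD and 2421 and 2447 in Control, a ratio of 0.601 (0.562 to 0.643). The 437-base Ldhb-202 had 295 and 285 reads in SD and 416 and 376 in Control, a ratio of 0.779 (0.667 to 0.909), yet took 54.2% and 53.2% of the gene's TPM in SD and 47.9% and 45.6% in Control. Ldhb was 88.6% and 88.8% of the summed TPM of the 2 genes in the SD files and 91.35% and 91.04% in the Control files, a difference of −2.48 points. Over transcripts of at least 1000 bases it was 79.97% and 79.8% in SD and 84.1% and 84.4% in Control, a difference of −4.36 points. Ldhb messages were therefore the larger part in all 4 files on either measure. Ldha shares 19.6%, Ldhb 33.0% and Pkm 22.9% of their stretches of 31 bases with other genes, and the pseudogenes among these were given at most 21.5 reads per gene and group.

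Across the 10 genes the annotation lists 99 transcripts, of which 58 had reads and 27 held at least 5% of their gene's TPM in either group. Of these 27, 6 differed by at least 10 points in share, in Pfkm, Aldoa and Gapdh with 2 each. Of 13117 measured genes with several transcripts 56.3%, and of the 6707 of them with at least 400 reads 53.0%, had such a transcript. Over those 13117 genes 40.0% of 38054 transcripts differed as much, so the share here, 22.2%, was below the background (30.5% at 400 reads or more). At least 5 points of difference were seen in 20 of the 27 and in 65.3% of all. A difference of at least 30 points was seen in 4 of the 27, those of Pfkm and Aldoa, and in 10.3% of all. Between the files of a group, 11.4% of transcripts in SD and 10.2% in Control differed by at least 10 points. Retained-intron transcripts took 13.2% of all reads in the SD files and 10.6% in the Control files. Their share of a gene's reads was larger in SD for 6 of the 8 genes that had any, and smaller for Gapdh (22.1% in SD and 24.2% in Control) and Hk1. Because the share over all reads was also larger in SD, this count is not particular to these genes. For Pgk1 it rests on few reads, 0.781% of 880 in SD and 0.624% of 1016 in Control.

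**Figure D3:**
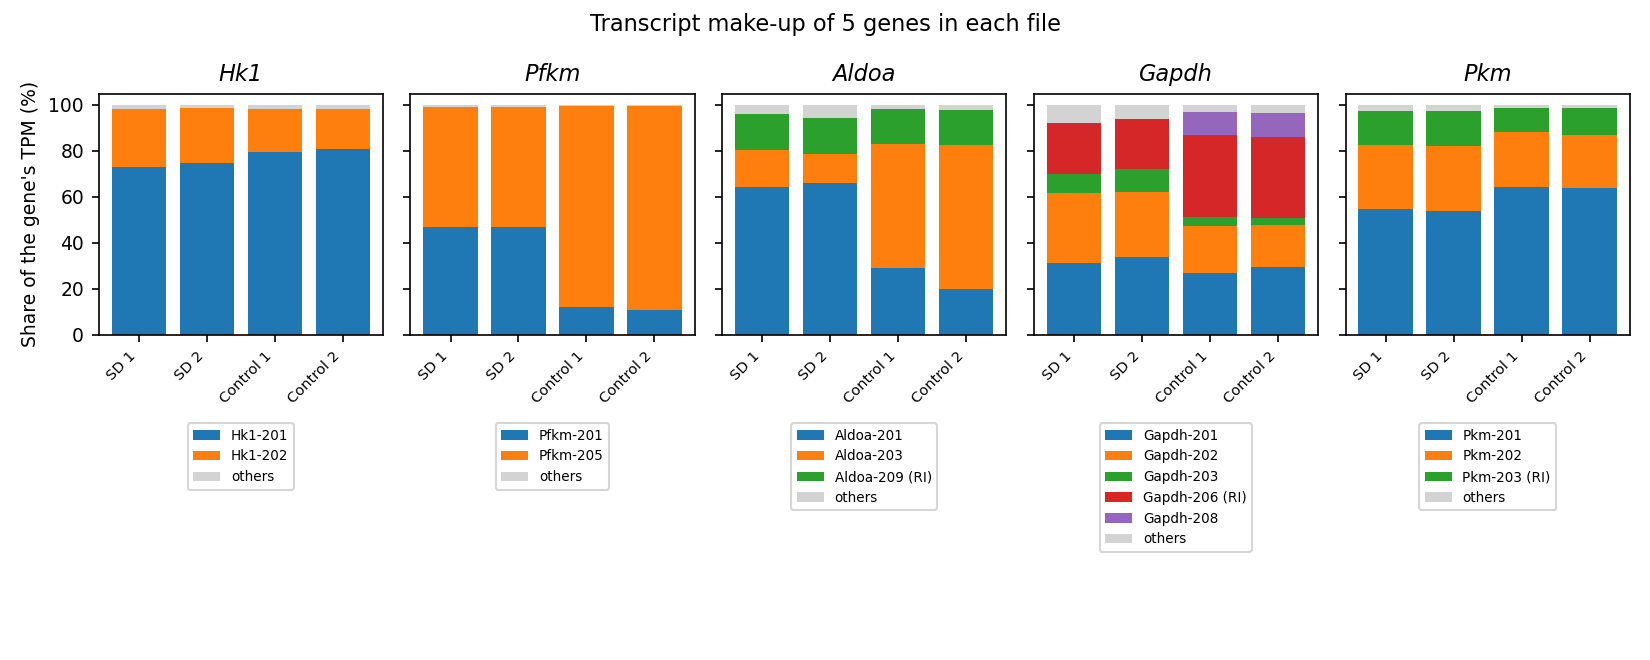
Stacked shares of each gene's TPM in the SD files (left bars) and Control files (right bars) for transcripts with at least 5% in either group, with RI for retained intron and grey for all others. The panels of Pfkm and Aldoa show the widest gaps, and Hk1 and Pkm shift by under 10 points. Pfkm-201 was at 47.0% and 46.8% in SD and 11.9% and 10.7% in Control. Aldoa-201 was at 64.05% and 65.97% in SD and 29.1% and 19.9% in Control.

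The other genes of glucose metabolism were read from 6 lists with 84 genes, of which 77 were measured and 3 (3.90%) were called, against 9.86% of all measured genes. Their median ratio was 0.938. Of 15 other glycolytic enzymes 1 was called. The most abundant were the neuronal enolase Eno2, with a ratio of 1.11 (1.08 to 1.15), the glucose phosphate isomerase Gpi1, with 1.54 (1.49 to 1.60), and the brain aldolase Aldoc, with 0.844 (0.812 to 0.877). Over coding transcripts alone Eno2 was at 0.425 and Gpi1 at 0.673, so their directions turned with the transcripts counted. Named after their values were seen, to complete the steps, Pgam1 was at 0.828 (0.769 to 0.892), Eno1 at 1.03 (0.964 to 1.10), Hk2 at 0.938 (0.738 to 1.19) and Bpgm, at 29.6 CPM in SD and 59.1 CPM in Control (0.501, 0.445 to 0.563), just outside the 2-fold rule. Of 11 regulators Gckr, the glucokinase regulator, was called higher on 76 reads in SD and 39 in Control (2.07, 1.39 to 3.13), but was at 0.784 with the length offset and was not called without SD file 2. The abundant Hif1a, the oxygen-regulated factor that drives glycolytic genes, was at 0.862 (0.807 to 0.921), the bifunctional kinase and phosphatase Pfkfb2 at 1.54 (1.44 to 1.65; 0.788 over coding transcripts) and Epas1 at 0.678 (0.628 to 0.732).

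Of 14 transporters Slc2a5, a fructose transporter made by microglia, was called higher on 22 reads in SD and 8 in Control (2.93, 1.25 to 7.60), but was at 0.812 with the length offset. The monocarboxylate transporter chaperone Bsg was at 1.01 (0.956 to 1.07), the neuronal glucose transporter Slc2a3 at 1.52 (1.42 to 1.63) and the mitochondrial pyruvate carrier subunit Mpc1 at 0.746 (0.694 to 0.802). None of 12 genes of the pyruvate dehydrogenase step was called, and Pdhb was at 1.03 (0.982 to 1.09), Dld at 0.732 (0.695 to 0.771) and the kinase Pdk2 at 0.933 (0.863 to 1.01). None of 17 genes of the pentose phosphate pathway and glycogen was called, with Pygb at 0.904 (0.826 to 0.989) and Pgm1 at 0.701 (0.63 to 0.779). None of 8 splicing regulators was called. The list medians lay between 0.896 for the regulators and 1.20 for the splicing regulators, and the microglial markers had a median of 2.85.

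**Figure D4:**
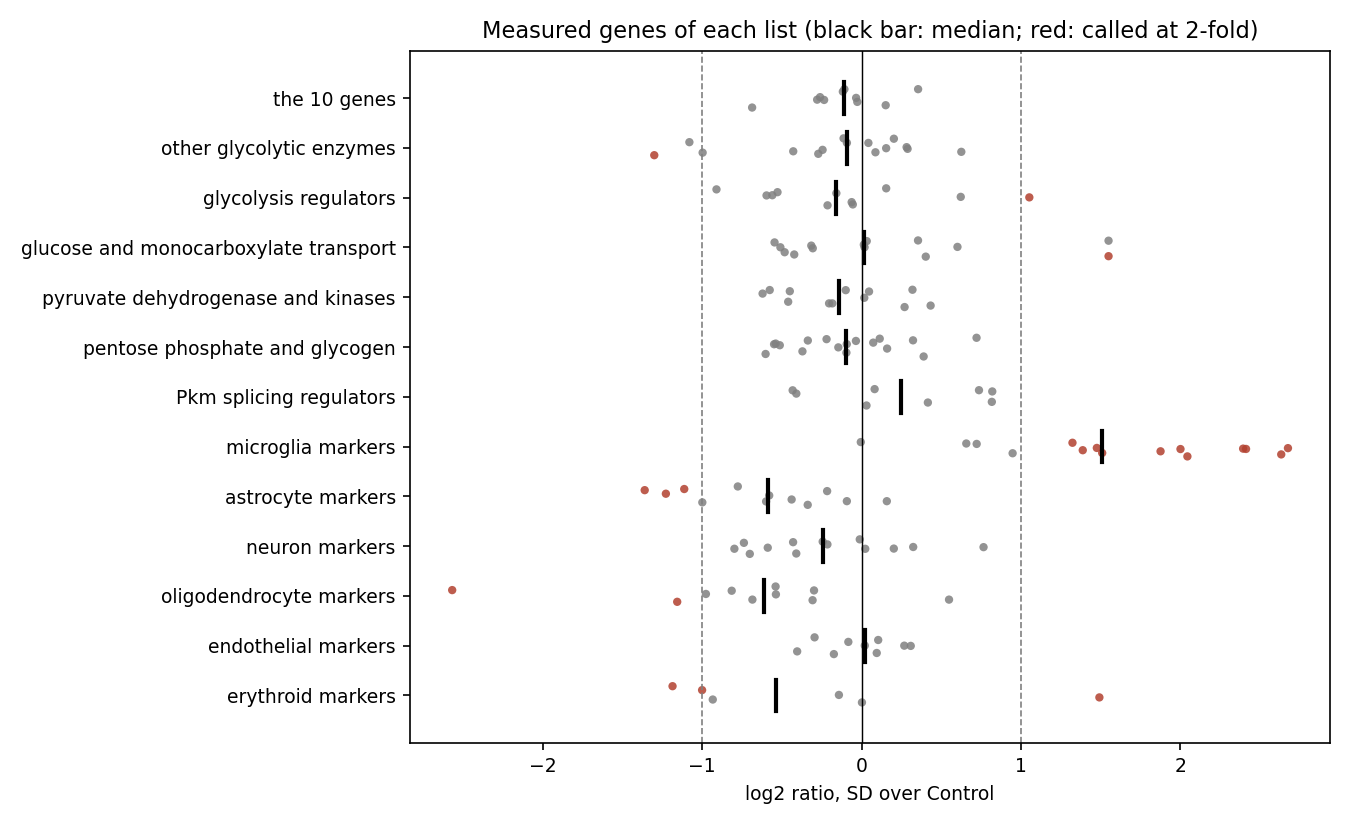
log2 SD over Control ratio of each measured gene (points, red where called) by list, with black bars for list medians and dashed lines at 2-fold. The 10 genes and the 6 related lists lie around 0 with 3 called genes among the related lists, while microglial markers lie to the right (median log2 1.51) and astrocyte (−0.59) and oligodendrocyte markers (−0.61) to the left.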

How the data were processed

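Hippocampal RNA from a ribosome affinity pulldown was enriched for polyA, per the labels' protocols. The files hold, per the file headers, TPM and estimated counts for each of 116546 transcripts, and both were deposited by the authors without further scaling. The submitters' processing notes list Salmon, DESeq2 and the build mm10, without versions or a strand setting. Groups came from the sample titles, since the treatment field names sleep deprivation for every sample. Transcripts were matched by identifier to GENCODE M21 (99.5%) and summed by symbol, with estimated counts rounded to whole numbers.

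Files of a group were averaged after the replicate check, so the planned edgeR quasi-likelihood and DESeq2 tests and the replicate block were not run. TMM factors, and the filter with a minimum count of 10, came from edgeR 4.0.16 in R 4.3.3, and size factors from DESeq2 1.42.0 were an alternative. Fewer than 3 reads were set to 3 for a fold. Because PCR copies may be counted as separate reads, intervals cover counting error only. Reads of overlapping, antisense or near-identical genes cannot be told apart with certainty. Promoter windows came from RefSeq (GRCm38.p6), and exon sequences from GENCODE M21 transcripts. All 10 genes were named, transcripts with at least 5% of a gene's TPM in either group, and of each related list the called genes and the 3 most abundant. Of each marker list the highest and lowest ratio and the 2 most abundant were named, except for some genes that are not reported here. The members and lists were chosen with earlier results of these data known. No genes of like pattern were sought, because 2 libraries give no pattern.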

Additional observations from a re-analysis of the deposited data

How the results depend on the processing

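No paired analysis was possible because the 2 files of each group counted as 1 library. For the same reason, values without single files carry no spread between mice or pulldowns and are no test of robustness. None of the 10 genes was called under another normalization, without the filter, over coding transcripts, with the length offset or without any 1 file, and with a 1.5-fold rule 1 was. The summed ratio of the 10 genes was 0.869 with library totals, 0.921 over coding transcripts and 0.881 with the length offset, and without single files it ran from 0.899 to 0.9002. As TPM relative to the median of all genes, an alternative chosen after seeing the data, it was 0.806. Without the filter the median log2 ratio of the 20405 genes with reads was 0.10. That is the value that 2 counts at the floor of 3 reads give under that scaling. It is therefore not read as a shift of all genes. The length offset turned Tpi1 round and moved 5 of the 10 genes beyond their intervals. Related genes called numbered 3 by the main rule, 8 over coding transcripts (2 of the 3 among them), 1 with the length offset, 15 with a 1.5-fold rule, and 2 to 4 without single files. The cause of the other changes was not tested. The related genes measured numbered 77. Of all measured genes, 9.86% passed the main rule, 12.2% that rule with the length offset and 26.1% the 1.5-fold rule. The count over coding transcripts has no such background here. The difference in M2 share of Pkm was −8.68 points with reads per length and −7.06 over coding transcripts, and −9.31 to −8.86 without single files. That of the Ldhb share was −3.26 with reads per length, −2.05 over coding transcripts, −4.36 over transcripts of at least 1000 bases (also chosen after seeing the data), and −2.63 to −2.32 without single files. That of the Pfkm share was −1.06, then −0.523 with reads per length, 4.51 over coding transcripts, and −1.21 to −0.912 without single files. With pseudogene reads (also chosen after seeing the data) the log2 ratio of Gapdh was −0.25. At a difference of 5 points 20 transcripts were counted in place of 6, and 6 to 9 without single files. Depth limited most the short transcripts of Pfkl and Tpi1 and the genes Gckr and Slc2a5.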
